A study of Mus musculus with 6 samples.

Results

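FXR binding was examined at 31 genes of cholesterol synthesis and its control by SREBP2. The genes were chosen by name, and their peaks are those that the deposited peak tables assign to them, and the rule itself uses no measured value. The tables name 9654 genes in all, and 19 of the 31 genes were among them. These held 52 of the 20040 peaks of control liver and 35 of the 12495 peaks of liver without hepatocyte Bcl6. FXR is the nuclear receptor for bile acids, BCL6 is a transcriptional repressor, and ChIP-seq sequences the DNA that an antibody to FXR pulls down from crosslinked chromatin. The samples were livers of male C57BL/6 mice. Bcl6fl/fl mice (WT) carried floxed Bcl6 alleles and Bcl6LKO mice (LKO) carried the same alleles with Alb-cre, a transgene that deletes floxed DNA in hepatocytes through the albumin promoter. There were 2 FXR ChIP libraries of each genotype, and 1 input library of chromatin sequenced without the antibody step. Both genotypes therefore share the floxed alleles, and they differ in the Cre transgene as well as in Bcl6. Ages were not given in the labels, and the tables hold no reads over the floxed exons from which the deletion could be checked. In bulk liver, a difference in the makeup of the cells and a difference in binding within hepatocytes cannot be told apart.

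Cholesterol is built from acetyl-CoA through mevalonate, isoprenoids, squalene and a series of sterols. When membranes hold little sterol, the escort protein SCAP carries SREBP2 from the endoplasmic reticulum to the Golgi, where proteases release a fragment that enters the nucleus and switches on these enzymes. When sterol is plentiful, the INSIG proteins hold SCAP back. The liver turns cholesterol into bile acids, the ligands of FXR. The comparison asks where FXR bound at the genes that make and handle cholesterol, and how those sites stood in liver without hepatocyte Bcl6.

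The sequences below are those of the peaks on which the results turn, read from the forward strand of the GRCm38.p6 assembly, which has the mm10 coordinates of the tables. The first 3 are the shared peaks of the 31 genes with the highest WT level, in the first intron of Fdft1 (chr14:63166742-63166952), in the promoter of Srebf2 (chr15:82146929-82147139) and upstream of Insig2 (chr1:121335860-121336070). Capitals mark AGGTCA on either strand, the repeat from which nuclear receptor elements are built. It was found in 1 copy in the Insig2 peak and in neither of the others.
Fdft1 intron peak: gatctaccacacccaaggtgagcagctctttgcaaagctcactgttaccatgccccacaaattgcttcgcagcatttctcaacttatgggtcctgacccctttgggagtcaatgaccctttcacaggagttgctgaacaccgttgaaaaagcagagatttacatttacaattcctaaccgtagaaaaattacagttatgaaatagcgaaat
Srebf2 promoter peak: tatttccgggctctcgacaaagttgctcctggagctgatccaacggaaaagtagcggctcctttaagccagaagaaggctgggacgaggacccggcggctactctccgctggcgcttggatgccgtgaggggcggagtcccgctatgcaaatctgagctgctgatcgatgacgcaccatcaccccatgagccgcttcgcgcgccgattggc
Insig2 upstream peak: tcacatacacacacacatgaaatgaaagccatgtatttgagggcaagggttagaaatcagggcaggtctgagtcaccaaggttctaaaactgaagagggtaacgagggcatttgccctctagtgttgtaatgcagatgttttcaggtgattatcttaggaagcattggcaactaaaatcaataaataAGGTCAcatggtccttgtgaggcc

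A further shared peak lies in intron 10 of 18 of Srebf2 (chr15:82183739-82183949) and is assigned to Mir33, the microRNA gene hosted by a later intron of Srebf2. It is shown because in WT it was stronger than every peak assigned to the 31 genes, and it was picked after its values were seen. AGGTCA, in capitals, occurs in it in 2 copies of the same orientation. The mature 5′ arm of the microRNA (chr15:82198127-82198147, forward strand, from RefSeq) is given with its seed, bases 2 to 8, in capitals.
Srebf2 intron 10 peak: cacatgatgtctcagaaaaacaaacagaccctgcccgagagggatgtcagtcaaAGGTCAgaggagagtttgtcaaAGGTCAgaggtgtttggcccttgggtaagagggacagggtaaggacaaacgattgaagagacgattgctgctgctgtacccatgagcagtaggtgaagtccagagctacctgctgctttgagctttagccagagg
mmu-miR-33-5p: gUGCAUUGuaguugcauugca

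The next pair are the shared peaks that hold a close match to the FXR element IR1, an inverted repeat of AGGTCA around 1 base. Capitals mark the match, which has 1 mismatch among its 12 scored bases in each. The first lies upstream of Insig1 (chr5:28046991-28047201) and the second in intron 1 of Insig2 (chr1:121325751-121325961).
Insig1 upstream peak: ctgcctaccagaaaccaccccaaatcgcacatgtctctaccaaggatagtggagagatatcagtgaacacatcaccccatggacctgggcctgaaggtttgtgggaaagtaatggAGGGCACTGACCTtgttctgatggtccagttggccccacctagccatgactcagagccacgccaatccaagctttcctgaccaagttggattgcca
Insig2 intron peak: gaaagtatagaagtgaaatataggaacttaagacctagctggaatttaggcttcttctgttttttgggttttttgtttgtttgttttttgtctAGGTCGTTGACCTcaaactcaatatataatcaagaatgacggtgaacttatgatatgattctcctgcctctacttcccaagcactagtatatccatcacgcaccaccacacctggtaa

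The last sequence is the RefSeq promoter of Hmgcs1 up to its start site (chr13:119690101-119690350, forward strand). It is shown because, of the 25 promoters with a RefSeq sequence, only it held an exact TCACNCCAC, marked in capitals. These letters stand here for the sterol response element, which SREBP binds, and elements with other letters were not searched for. A shared FXR peak covers most of it.
Hmgcs1 promoter: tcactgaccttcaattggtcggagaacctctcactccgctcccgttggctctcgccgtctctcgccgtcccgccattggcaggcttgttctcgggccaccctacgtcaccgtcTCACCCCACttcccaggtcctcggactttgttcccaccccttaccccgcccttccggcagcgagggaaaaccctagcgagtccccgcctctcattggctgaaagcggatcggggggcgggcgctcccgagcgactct

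FXR peaks were assigned to 18 of the 31 genes in WT (58.1%, 95% Wilson interval 40.8 to 73.6%) and to 16 in LKO (51.6%, 34.8 to 68.0%). A shared peak, meaning a WT and an LKO peak that overlap by at least 1 bp, was found at 15 genes (48.4%, 32.0 to 65.2%). Over all 21887 protein-coding RefSeq genes these shares were 35.1%, 26.8% and 23.2%. Among the 9654 genes that the tables name, 93.5% had a WT peak, 71.2% an LKO peak and 61.4% a shared peak, against 18, 16 and 15 of the 19 named here. Idi1, Msmo1 and Stard4 were assigned WT peaks only and Mbtps1 an LKO peak only. No peak was assigned to Mbtps2, Acat2, Pmvk, Mvd, Sqle, Lss, Cyp51, Nsdhl, Hsd17b7, Ebp, Npc2 and Npc1l1. Peaks were called on the pooled libraries of a genotype, so presence of a peak carries no spread between replicates, and the intervals cover counting error only.

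**Figure D1:**
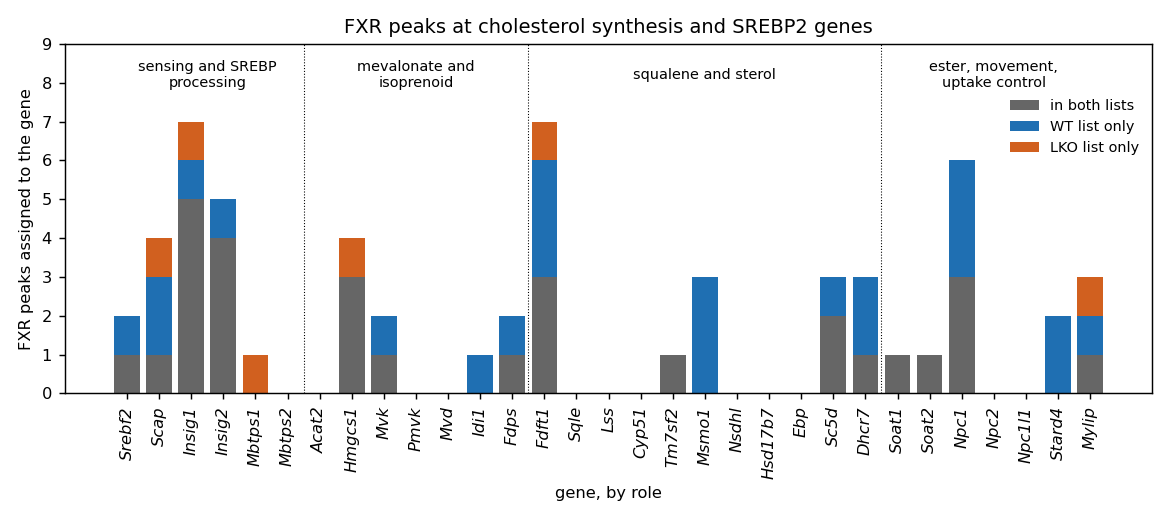
Number of FXR peaks assigned to each of the 31 genes (vertical axis) by gene and role (horizontal axis), split into peaks in both lists, in the WT list only and in the LKO list only. Insig1 and Fdft1 had the most, and 12 genes had none.

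WT peaks were most numerous at a few genes. Insig1, Fdft1 and Npc1 had 6 WT peaks each and Insig2 had 5, so 4 of the 18 genes with a WT peak had at least 5, a count that 9.98% of all genes with a WT peak reached. In LKO 1 of the 16 genes with a peak did so, Insig1 with 6, against 5.25% of all genes with an LKO peak. Insig1 kept 5 of its peaks in both lists and Insig2 kept 4. By role, genes are counted here where they had a peak in either list. The sterol sensing and SREBP processing genes held 16 WT, 14 LKO and 11 shared peaks at 5 of 6 genes. The mevalonate and isoprenoid genes held 8, 6 and 5 at 4 of 7. The squalene and sterol genes held 16 WT, 8 LKO and 7 shared peaks at 5 of 11 genes. The remaining genes, of cholesterol esters, cholesterol movement and receptor turnover, held 12, 7 and 6 at 5 of 7. Shared peaks alone lay at 4, 3, 4 and 4 genes of these roles, in the same order.

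Levels are given in log2 units after subtracting the library's own median over the 9918 shared peaks, so that 0 is a typical shared site. Means are of 2 libraries with their SD. The tables were normalized separately, so differences between genotypes are a description with no test, and 2 libraries against 2 could not go below an exact two-sided permutation p of 0.333. With the values as deposited, the library medians over all shared peaks differed by -0.33 between LKO and WT, and the differences below are relative to that shift. The strongest shared peak of a gene is the one with the highest WT level, a choice that favours peaks with a lower LKO level. Peak scores are the pooled ChIP tags of a genotype, scaled by the authors' HOMER run to a common total, with 1 value per genotype and no SD. Replicate 1 supplied 86.8% of the pooled WT tags.

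Srebf2, which encodes SREBP2 itself, had a peak 235 bp before its start site. Its level was 1.00 and 1.09 in the WT libraries and 0.82 and 0.53 in the LKO libraries. Both LKO libraries lay below both WT libraries, and the difference of the means was -0.36 with a pooled SD of 0.15. The peak score was 74.9 in WT and 30.1 in LKO, and input was 1.83 and 2.47 on the deposited log2 scale, just under the highest 5% of each list. The other WT peak of Srebf2, 2904 bp before the start, had no LKO partner.

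The intron 10 peak of Srebf2 that is assigned to Mir33, whose product lowers cholesterol export, reached 2.32 and 2.09 in WT and 1.27 and 1.49 in LKO. No peak assigned to the 31 genes reached the WT level, and in LKO the intron 1 peak of Fdft1 was higher. The site was at percentile 97.9 of strength in the WT list and 89.9 in the LKO list. The LKO libraries again lay below the WT libraries, by -0.83 with a pooled SD of 0.16, and the score was 180.3 in WT and 47.6 in LKO. Input at this site was near 0 in both tables on the deposited log2 scale (0.0035 and 0.18). A weaker neighbour in the same intron, at -0.20 and 0.53, was in the WT list only.

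Insig1 and Insig2 encode the anchors that hold SCAP in the endoplasmic reticulum. The strongest shared Insig2 peak, 3376 bp upstream, had levels of 0.61 and 1.16 in WT and 0.45 and 0.13 in LKO, with scores of 63.0 and 24.1. Both LKO libraries lay below both WT libraries, with a difference of -0.59 and a pooled SD of 0.32. The peaks 16696 and 18207 bp upstream differed in the same direction, by -0.26 and -0.50, and the LKO input was high at the farther of them (2.97 on the deposited log2 scale). The intron 1 peak with the IR1 match went the other way. Its levels were -0.30 and -0.10 in WT and 0.21 and 0.23 in LKO, a difference of 0.42 with a pooled SD of 0.10. Insig2 also had a WT peak at its promoter, 36 bp from the start, with levels of -0.37 and 0.12 and no LKO partner, where the WT input was among the highest 5% (2.64).

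The strongest shared peak of Insig1 lay 67063 bp upstream and had levels of 0.70 and 0.35 in WT and 0.74 and 0.24 in LKO. The libraries of the genotypes overlapped there. At the Insig1 peak with the IR1 match the levels were 0.42 and 0.55 in WT and 0.27 and 0.46 in LKO, which also overlapped, and the scores were 53.4 and 23.7. The remaining 3 shared peaks upstream of Insig1 differed by -0.33, 0.75 and -0.37, and the libraries overlapped at the last. The peak with 0.75 was at -0.86 and -1.98 in WT and -0.72 and -0.61 in LKO, with a pooled SD of 0.56. The promoter of Insig1 itself, 430 bp before the start, had a peak in the LKO list only, with levels of -0.59 and -1.50 and a score of 10.0, where the lowest score of that list was 8.88. The 5 shared Insig1 peaks lay between 15693 and 67063 bp upstream.

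Scap, the escort of SREBP2, had 1 shared peak in intron 2, where levels were -0.48 and -0.30 in WT and -0.16 and -0.89 in LKO and overlapped. The WT input was high at this site (2.27). An LKO-only peak in intron 1 of Scap had levels of -0.43 and -1.13. Mbtps1, the site-1 protease that makes the first cut in SREBP2, had an LKO-only peak in intron 6 with levels of -0.79 and -0.99 and a score of 11.4. That peak lay 17538 bp from the start, and no LKO peak lay nearer. A WT peak lay 16388 bp from the start of Mbtps1, at the promoter of Hsdl1, to which it is assigned. Its levels were 2.23 and 2.78 and its score was 187.2. Mbtps2, the site-2 protease, had its nearest WT peak 1734447 bp away.

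Among the mevalonate genes, Hmgcs1, the synthase that makes HMG-CoA, had the most sites. Its strongest shared peak was in intron 2, 8236 bp from the start, with levels of 0.55 and 0.62 in WT and -0.18 and 0.38 in LKO and scores of 58 and 20. The LKO libraries were both below the WT libraries, by -0.48 with a pooled SD of 0.28. The promoter peak over the sterol element differed in the other direction. Its levels were -0.44 and -0.18 in WT and -0.07 and 0.47 in LKO, a difference of 0.51 with a pooled SD of 0.30, while the WT input was high there (2.63) and the part of that input in the result was not tested. Peaks at the 3′ side of Hmgcs1, in the neighbouring gene Nim1k, were weaker. The shared peak there was at -1.31 and -1.21 in WT and -1.03 and -0.68 in LKO, and an LKO-only peak was at -0.70 and -1.84.

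Mvk, mevalonate kinase, showed the most negative difference of all shared peaks assigned to the 31 genes. Its peak 18346 bp past the start, beyond the end of the gene, had levels of -0.15 and 0.07 in WT and -1.04 and -0.86 in LKO. No overlap was seen between genotypes, the difference was -0.91 with a pooled SD of 0.14, and the score was 34.2 in WT and 9.11 in LKO. The LKO score was near the lowest of its list, 8.88. Fdps, farnesyl diphosphate synthase, had a shared peak 1588 bp upstream with levels of -0.47 and -0.72 in WT and -0.21 and -0.55 in LKO, which overlapped. Idi1, the isomerase that makes dimethylallyl diphosphate, had a WT-only peak 46 bp from its start. Its levels of -1.27 and -2.96 had the widest gap between replicates of the 52 WT peaks.

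Fdft1, squalene synthase, which commits isoprenoids to sterols, had the strongest peak assigned to any of the 31 genes. It lies in intron 1, 11040 bp from the start, and its levels were 1.60 and 1.85 in WT and 1.91 and 1.93 in LKO. Both LKO libraries lay above both WT libraries, by 0.19 with a pooled SD of 0.13, but with the values as deposited the difference was -0.14. The score was 118.7 in WT and 68.8 in LKO. A second intron 1 peak, at 0.02 and -0.09 in WT and 0.02 and -0.21 in LKO, and a peak 1475 bp upstream, at -1.10 and -0.78 in WT and -1.82 and -0.44 in LKO, both overlapped between genotypes. The promoter peak of Fdft1 was in the WT list only and was weak (-2.39 and -1.52, score 9.59), and an LKO-only peak in intron 4 was at -0.93 and -0.26.

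Of the sterol-modifying enzymes, 4 had peaks and 6 had none assigned. Tm7sf2, a sterol C14 reductase, had a shared promoter peak 178 bp before its start, with levels of -0.28 and -0.62 in WT and -0.80 and -1.50 in LKO. The LKO libraries lay below the WT libraries, by -0.70 with a pooled SD of 0.39, and the scores were 31.5 and 9.11. The LKO peak was centred 67 bp before the start, so the levels were read from windows that overlap only in part. Its score was near the lowest of the LKO list, 8.88. Sc5d, a sterol desaturase, had its strongest shared peak 7328 bp upstream, at -0.14 and 0.18 in WT and 0.25 and 0.44 in LKO. The LKO libraries lay above the WT libraries, by 0.33 with a pooled SD of 0.19, and this difference disappeared with the values as deposited (-0.00036). The shared Sc5d peak 10941 bp upstream went the other way, at -0.14 and -0.32 in WT and -0.59 and -0.39 in LKO, a difference of -0.26 with a pooled SD of 0.14.

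Dhcr7, the reductase of the last step to cholesterol, had a shared peak in intron 1. Its levels were -0.75 and -1.39 in WT and -0.98 and -1.07 in LKO, which overlapped. The tables place it 6835 bp from the start, but another RefSeq start of Dhcr7 lies 212 bp away. The peak of Dhcr7 with the highest WT level was in the WT list only. It lies at the 3′ end of the gene, with levels of 0.17 and 0.73 and a score of 48.4, the highest among the WT-only peaks. Msmo1, the sterol methyl oxidase, had 3 peaks in WT and none in LKO, and the strongest of them, in the neighbouring gene Klhl2, was at -0.66 and -0.73.

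Soat1 and Soat2 esterify cholesterol, and each had a single shared peak. The Soat1 peak, 31770 bp upstream, was at 0.76 and 0.69 in WT and 0.93 and 0.78 in LKO, with scores of 63.0 and 34.1. The LKO levels were above the WT levels by 0.13 with a pooled SD of 0.08, and the sign turned with the values as deposited (-0.20). The Soat2 peak, in intron 2, was at 0.14 and 0.50 in WT and -0.02 and -0.05 in LKO, a difference of -0.35 with a pooled SD of 0.18. The LKO libraries lay below the WT libraries there, and the scores were 42.9 and 19.1.

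Npc1 exports cholesterol from lysosomes, and 6 WT and 3 LKO peaks were assigned to it. The shared peak with the highest WT level, in intron 3, was at -0.20 and -0.00 in WT and -0.73 and -0.99 in LKO, a difference of -0.76 with a pooled SD of 0.16. The shared peak in intron 1, 1953 bp from the start, differed in the other direction, at -0.37 and -0.95 in WT and 0.17 and -0.25 in LKO (0.62, pooled SD 0.36). The promoter peak, 231 bp before the start, was in the WT list only at -0.24 and -1.36. Stard4, a soluble sterol carrier, had WT peaks only, both more than 100 kb away, and the stronger was at -0.73 and 0.37. Mylip, the ligase that degrades lipoprotein receptors, had a shared peak 127576 bp upstream at -0.74 and -1.17 in WT and -1.15 and 0.07 in LKO, and an LKO-only peak in intron 2 at -1.03 and -0.74.

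**Figure D2:**
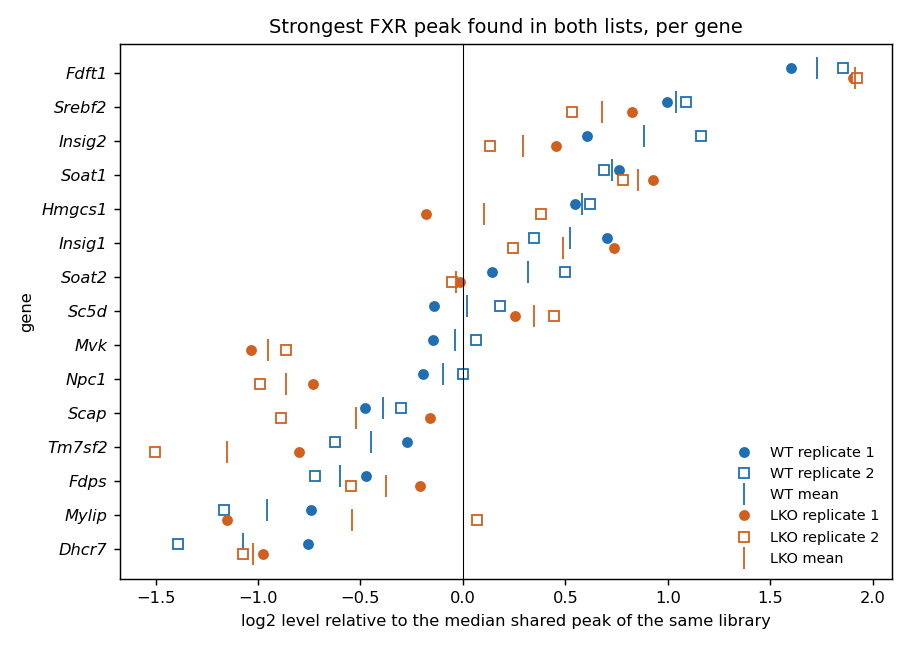
Level of the strongest shared FXR peak of each of the 15 genes in the 4 ChIP libraries, as log2 relative to the median shared peak of the same library (horizontal axis), by gene. Circles are replicate 1, squares replicate 2 and ticks the mean of 2. Fdft1 was at the top in all libraries. Both LKO points lie left of both WT points at Srebf2, Insig2, Hmgcs1, Soat2, Mvk, Npc1 and Tm7sf2, and right of them at Fdft1, Soat1 and Sc5d.

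These differences rest on 2 libraries a side. With 1 library left out, the difference at the strongest shared peak kept its sign at 11 of the 15 genes and turned at Insig1, Scap, Mylip and Dhcr7. The sign could not turn where both LKO libraries lay on the same side of both WT libraries. It was open only at Insig1, Scap, Mylip, Dhcr7 and Fdps, and of these it held at Fdps. At Mvk and Npc1 the difference stayed within 1.5 times of the value given, from -1.01 to -0.80 and from -0.89 to -0.63.

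Over the 29 shared peaks of the 31 genes, both LKO libraries lay above both WT libraries at 8 and below them at 11, and they overlapped at 10. These are 27.6% and 37.9%, and over all shared peaks the shares were 29.8% above and 25.2% below. The median difference was -0.13, with a range from -0.91 to 0.75, and over all shared peaks it was 0.03 with 90% of the peaks between -0.82 and 1.11. The median pooled SD was 0.19 here and 0.25 over all. With the values as deposited, the split was 1 above and 14 below at a median of -0.46, and over all shared peaks it was 12.9% above and 37.3% below. By role, the median difference was -0.26 for the sensing and processing genes (2 above, 5 below), 0.22 for the mevalonate and isoprenoid genes (2 above, 2 below), -0.06 for the squalene and sterol genes (2 above, 2 below) and -0.06 for the remaining genes (2 above, 2 below). Peaks of the same gene are not independent, and Insig1 and Insig2 alone supplied 9 of the 29.

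**Figure D3:**
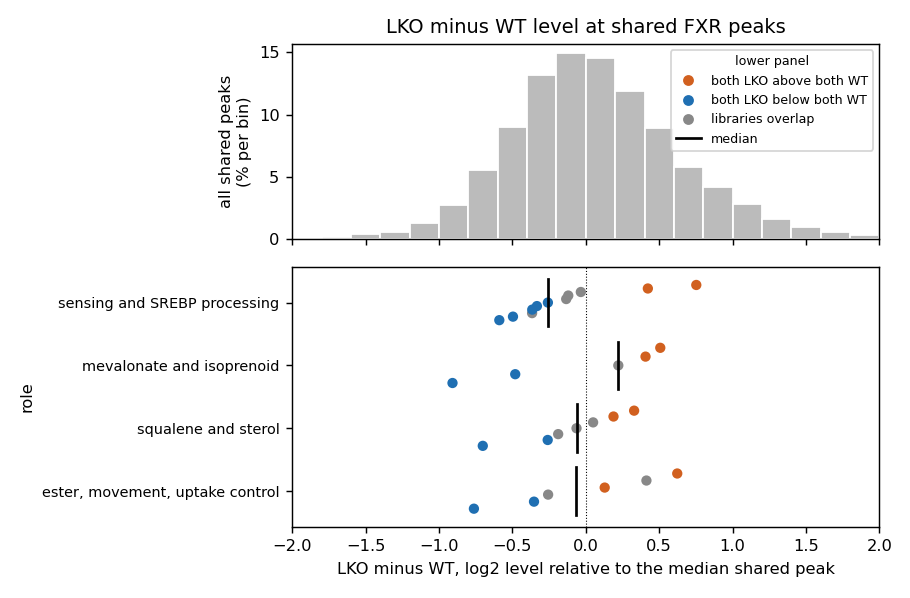
LKO minus WT level at shared peaks in log2 units (horizontal axis), for all 9918 shared peaks as percent per 0.2 bin between -2 and 2 (upper panel) and for the 29 peaks of these genes by role (lower panel). Colours show whether both LKO libraries lay above, below or overlapped the WT libraries, and bars are medians. The 29 peaks lie between -0.91 and 0.75.

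The peak score was lower in LKO at 29 of the 29 shared peaks, as it was at 95.7% of all shared peaks. The median ratio of LKO to WT score was 0.444, with a range from 0.266 at Mvk to 0.750 at the Hmgcs1 promoter, against 0.507 over all shared peaks (quartiles 0.406 and 0.638). The score is scaled to the tags of each pooled genotype and does not account for how much of a library lies in peaks. The direction of the score is thus a property of nearly the whole peak list.

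**Figure D4:**
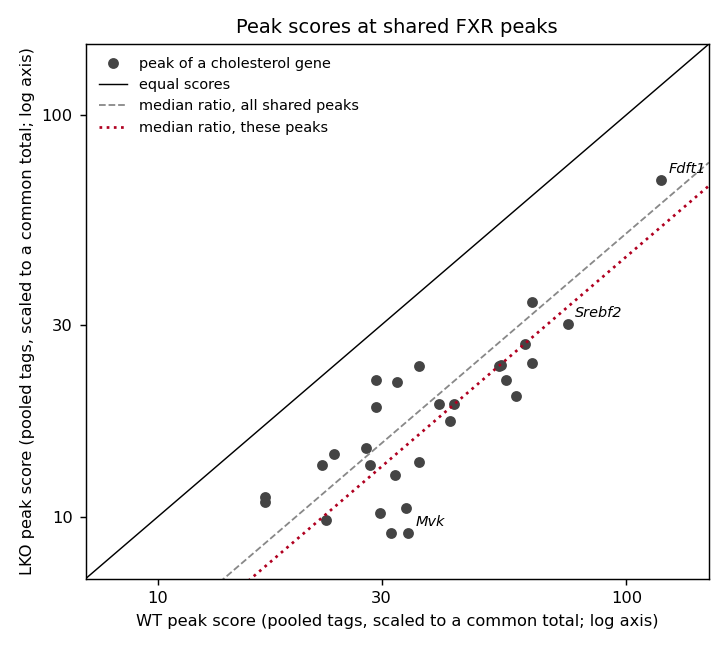
Peak score of the 29 shared peaks in WT (horizontal axis) and LKO (vertical axis), in pooled tags scaled to a common total, on log axes, with lines for equal scores and for the median ratios. All points lie below the line of equal scores, with Fdft1 at 118.7 and 68.8.

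Of the 52 WT peaks, 29 were shared (55.8%, 95% Wilson interval 42.3 to 68.4%), against 49.5% of all WT peaks. Of the 35 LKO peaks, 29 were shared (82.9%, 67.3 to 91.9%), against 79.4% of all LKO peaks. The 23 peaks found in WT only had a median score of 20.5, and the WT score of the shared peaks had a median of 34.2. The 6 LKO-only peaks had scores from 9.79 to 12.3, and the LKO score of the shared peaks had a median of 18.7. Peaks of a single list thus had lower median scores in both genotypes, and a site absent from a list may lie under its threshold.

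The tables assign each peak to the nearest start site, so a peak in or beside a gene can carry another name. Measured from RefSeq start sites, whatever gene a peak was assigned to, a WT peak lay within 1 kb of 10 of the 31 genes (15.2% of 21000 protein-coding genes) and within 10 kb of 13 (30.4%). An LKO peak lay within 1 kb of 6 (9.61%) and within 10 kb of 14 (21.3%). Within 100 kb these were 25 in WT (70.5%) and 21 in LKO (62.6%). The median distance to the nearest peak was 16388 bp in WT and 18366 bp in LKO, against 35005 and 55413 bp over all protein-coding genes.

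Mvd, mevalonate diphosphate decarboxylase, had no assigned peak, although a shared peak assigned to 9330133O14Rik lay 307 bp from its start. Its levels were 1.00 and 0.28 in WT and 0.29 and 0.39 in LKO, which overlapped, and its scores were 70.3 and 23.2, the WT score close to that of the Srebf2 promoter. The LKO input was just under the highest 5% of its list at this site (2.46). The nearest peak to Acat2, the cytosolic thiolase that joins acetyl-CoA units, lay 22937 bp away in intron 2 of its paralogue Acat3, at 1.58 and 1.68 in WT and 1.40 and 1.52 in LKO. The LKO levels were below the WT levels there, by -0.17 with a pooled SD of 0.08. The body of Npc1 held 7 WT and 4 LKO peaks, of which 5 and 3 were assigned to it.

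Several other genes without an assigned peak had their nearest peaks farther away. The nearest WT peak was 36021 bp from Sqle, squalene epoxidase, 40787 bp from Lss, the cyclase that makes lanosterol, and 457393 bp from Cyp51, the lanosterol demethylase. It was 202878 bp from Hsd17b7, 236960 bp from Ebp and 94559 bp from Nsdhl, which act between lanosterol and the later sterols. For Pmvk, phosphomevalonate kinase, it was 35926 bp. Npc2, the lysosomal partner of NPC1, and Npc1l1, the intestinal cholesterol importer, had their nearest WT peaks at 166601 and 44680 bp. Of these 9 genes none had a WT or LKO peak nearer than 35926 bp. The median over all protein-coding genes was 35005 bp in WT and 55413 bp in LKO. Pmvk and Sqle were thus close to the WT median. The nearest LKO peaks of Pmvk, Sqle and Lss, at 42705, 36073 and 40779 bp, were nearer than the LKO median.

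**Figure D5:**
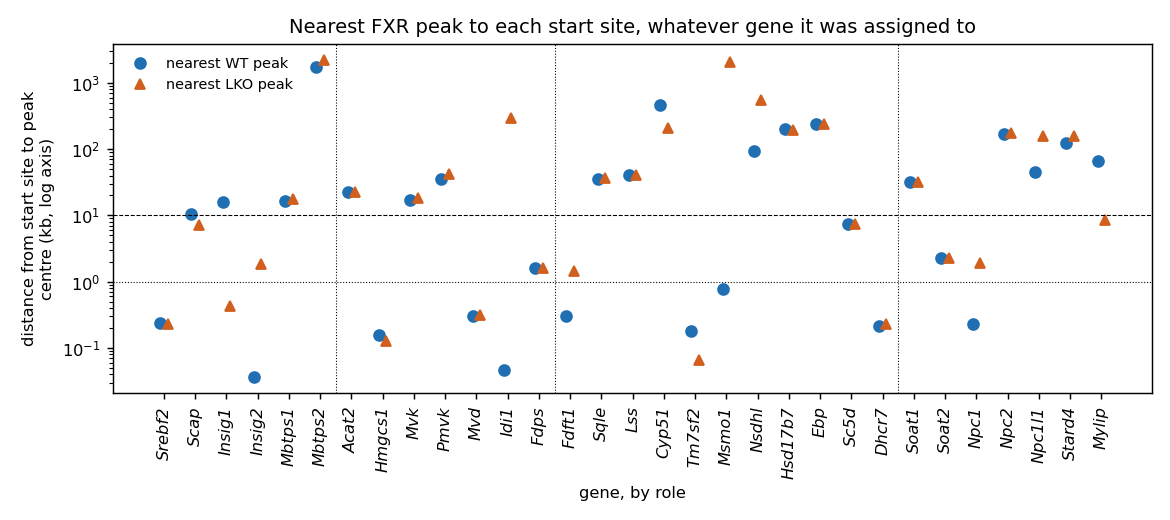
Distance from the RefSeq start site of each of the 31 genes to the centre of the nearest WT and LKO peak in kb (vertical log axis), by gene and role, whatever gene the peak was assigned to. Dotted and dashed horizontal lines mark 1 and 10 kb. Srebf2, Hmgcs1, Mvd, Tm7sf2 and Dhcr7 had a peak of both lists within 1 kb.

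Position within the gene was much like that of other FXR peaks. The authors' promoter class held 7 of the 52 WT peaks (13.5%) and 4 of the 35 LKO peaks (11.4%), against 11.4% and 11.3% of all peaks. Of the WT peaks 22 lay within 10 kb of the start (42.3%, all peaks 42.9%), and of the LKO peaks 16 did (45.7%, all peaks 42.4%). The promoter peaks in WT were those of Srebf2, Hmgcs1, Tm7sf2, Idi1, Fdft1, Insig2 and Npc1, and the first 3 of these were shared.

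An IR1 with at most 2 mismatches within 100 bp of the centre was found in 7 of the 52 WT peaks (13.5%, 95% Wilson interval 6.68 to 25.3%), against 11.9% of all WT peaks. It was found in 4 of the 35 LKO peaks (11.4%, 4.54 to 26.0%), against 16.3% of all. The shared peaks with a match were upstream of Soat1 and at the Insig1 and Insig2 sites, and at both the Insig1 and Insig2 sites printed above it had 1 mismatch. AGGTCA on either strand was found in 26 of 52 WT peaks (all peaks 41.0%) and 16 of 35 LKO peaks (45.7%, all peaks 41.6%), and it includes any exact repeat within an IR1. TTCNNNGAA, the core that BCL6 and STAT factors bind, was found in 3 WT peaks (5.77%, all peaks 6.90%) and 1 LKO peak (2.86%, all peaks 6.46%).

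In the 25 promoters with a RefSeq sequence, from 250 bases before to 50 after the start, CCAAT, the box bound by NF-Y, was found on either strand in 21 (84.0%) and in 42.3% of all 17492 promoters. TCACNCCAC was found in 1, that of Hmgcs1, and in 1.41% of all. Of the peaks themselves only that of the Hmgcs1 promoter held TCACNCCAC, in each list, and 0.893% of all WT and 0.904% of all LKO peaks did. A match is a description of letters and does not show that a factor binds. Lack of an exact match does not show that a promoter has no sterol element.

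A second list of 28 genes, of sterol sensing, sterol movement and the partners of SREBP outside the 31, had WT peaks at 21 genes (75%), LKO peaks at 18 (64.3%) and shared peaks at 17 (60.7%), with 46, 30 and 24 peaks, where the shares over all protein-coding genes were 35.1%, 26.8% and 23.2%. Of its 28 genes 12 had a shared peak within 10 kb of the start. Over all protein-coding genes, 21.3% had an LKO peak, shared or not, within 10 kb of a start. The strongest was at the promoter of Osbp, an oxysterol-binding protein, at 1.81 ± 0.12 in WT and 1.85 ± 0.40 in LKO (SD, n = 2). Next was intron 1 of Nfyc, a subunit of NF-Y, at 1.32 ± 0.02 and 1.63 ± 0.11. Erlin1, an endoplasmic reticulum scaffold, was at 0.89 ± 0.54 and 0.73 ± 0.43, and Stard5, a sterol carrier, at 0.49 ± 0.26 and 0.55 ± 0.02. Srebf1, which encodes the SREBP of fatty acid synthesis, was at 0.26 ± 0.44 and -0.15 ± 0.06.

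Depth differed between libraries. The ChIP libraries held 19022618 and 2883717 tags in WT and 21287263 and 22637613 in LKO, so that WT replicate 2 was the least precise. At the WT peaks of these genes the deposited log2 value was higher in replicate 2 than in replicate 1 by a median of 0.67, in 44 of 52 peaks, and by 0.57 over all WT peaks. In LKO the median difference was -0.23, with replicate 2 higher in 10 of 35 peaks, and -0.17 over all. ChIP values exceeded input by a median of 4.45 in WT and 4.22 in LKO on the log2 scale, against 4.49 and 4.38 over all peaks, and every deposited peak had been selected for such an excess. Input was among the highest 5% of its list at 3 of the WT peaks and 1 of the LKO peaks.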

How the data were processed

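Liver chromatin of WT and LKO male mice was crosslinked with DSG and formaldehyde and immunoprecipitated for FXR. Per the labels and the submitters' processing notes, the authors aligned reads to mm10 with Bowtie 1.2, keeping unique alignments, and used HOMER 4.10. Per the file headers, peaks were called per genotype, with its ChIP libraries pooled and its input as background, and were kept after a DESeq2 comparison with input. That comparison's fold changes and p-values were not used. The deposited value of each library at a peak is not a whole number and can be negative, and it was read as a log2 value of that DESeq2 run, fitted per table. The deposited Peak Score was read as a signal, pooled tags scaled to a common total. Because the tables hold no counts on a common scale, the count test that had been planned was not run.

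The 31 genes, the second list and all rules were chosen with earlier results of these data known. Every gene of the 31 is named, and values in every library are given for the strongest shared peak of each, promoter peaks, LKO-only peaks and the strongest WT-only peak of genes without a shared one. Further sites were chosen after their values were seen. The values of 1 gene of the second list are not reported here. WT and LKO peaks were paired one to one at an overlap of at least 1 bp. Sequences came from RefSeq and GRCm38.p6, against which the authors' start site distances were checked: they fell within 2 bp for 90.8% of the 15082 WT and 90.9% of the 9403 LKO peaks whose transcript had a promoter entry. All 31 genes matched a RefSeq identifier. The labels do not say whether replicates were separate animals. Inputs held 6964271 (WT) and 6935001 (LKO) tags. Computations ran in Python 3.11.15 with pandas 2.3.3, numpy 2.4.6 and scipy 1.17.1, figures in matplotlib 3.10.9, and pairing and motif searches were tested on simulated data. Alternatives to the overlap, gene assignment, strength limit, centring, motif mismatches and libraries used were tried.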

Additional observations from a re-analysis of the deposited data

How the results depend on the processing

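Of 160 values recomputed under another setting, 136 were counted as kept and 24 as changed. Counts were kept up to a change of 1.5 times, and levels up to the replicate SD. A level could thus turn sign and still count as kept. This held for the 5 turns with 1 library left out and for Dhcr7 with centring on the mean of shared peaks. Shares of the peaks of these genes that were kept lay within the Wilson interval of the value given, and those that changed lay outside it. With peaks within 10 kb of the start site only, 12 genes had a WT peak, 13 an LKO peak and 10 a shared peak, which counted as kept. With peaks within 1 kb of the start site only, 8 genes had a WT peak, 4 an LKO peak and 3 a shared peak. With peaks at or above the median strength of their list, 9 genes had an LKO peak, 9 had a shared peak, and 100% of the LKO peaks were shared. With lists of the same length, 68.4% of the WT peaks were shared. The shares over all genes and all peaks under these limits on distance, strength and list length are not given here. These counts and shares are therefore not set against a background and are not read as a trait of these genes. With at most 1 mismatch, 3.85% of the WT peaks held an IR1, against 2.47% of all WT peaks. With the values as deposited, the median difference at shared peaks was -0.46, and the strongest shared peaks of Fdft1 (-0.14), Soat1 (-0.20) and Sc5d (-0.00036) turned from positive to negative, as did Fdps (-0.11) and Dhcr7 (-0.28), whose libraries overlapped, since that scale lacks the centring on shared peaks. The difference at Dhcr7 also turned to -0.02 with centring on the mean of shared peaks. With 1 library left out, the median difference stayed between -0.20 and -0.16, but single peaks moved. The sign could turn only where the libraries overlapped, and it did so at 4 genes: Insig1 (0.14 without WT replicate 1, 0.21 without LKO replicate 2), Scap (0.23 without LKO replicate 2), Mylip (-0.20 without LKO replicate 2) and Dhcr7 (-0.27 without WT replicate 2). Another 9 kept their sign but changed by over 1.5 times, with ranges of 0.06 to 0.31 at Fdft1, -0.51 to -0.22 at Srebf2, -0.87 to -0.31 at Insig2, 0.05 to 0.20 at Soat1, -0.76 to -0.20 at Hmgcs1, -0.53 to -0.18 at Soat2, 0.17 to 0.49 at Sc5d, -1.05 to -0.35 at Tm7sf2 and 0.05 to 0.39 at Fdps. The value nearest 0 came without WT replicate 1 at Fdft1 and Sc5d, without WT replicate 2 at Insig2 and Soat2, without LKO replicate 1 at Soat1, Hmgcs1 and Fdps, and without LKO replicate 2 at Srebf2 and Tm7sf2. The backgrounds of 93.5%, 71.2% and 61.4% of named genes became 35.1%, 26.8% and 23.2% over protein-coding genes.

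No paired analysis was possible because the genotypes were normalized in separate tables and no test between them was made. The 2883717 tags of WT replicate 2 limit every WT level, and a peak absent from a list cannot be told apart from one under its threshold.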
